A study of Mus musculus with 237 samples.

Results

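The imprinted growth genes are the 10 genes Igf2, Dlk1, Igf2r, Grb10, Cdkn1c, Plagl1, Peg3, Mest, H19 and Meg3, chosen by name from the 55335 genes of the count table. The choice was made with earlier results of these data known, so counts of members set beside all genes are descriptions only. They were measured by full-length single-cell RNA-seq in 237 cells of mouse skin at E14.5, both genotypes on the C57BL/6N background. By the labels, 66 cells came from 3 wild-type (WT) embryos and 171 from 7 p63 knockout (KO) embryos, made by CRISPR-Cas9 editing of each zygote in an exon shared by both major p63 isoforms. WT epidermis was separated from dermis with dispase and its cells were screened by quantitative PCR for Krt5. KO fetuses were digested directly with trypsin and their cells were screened for Krt8. The paper also describes a check that Pdgfra, the gene of CD140a, showed no significant amplification. All cells were sorted as negative for propidium iodide, CD45, TER119 and CD140a.

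An imprinted gene is transcribed from the copy inherited from a single parent. Of the 10 genes, Igf2, Dlk1, Plagl1, Peg3 and Mest are known as expressed from the paternal copy, and Igf2r, Grb10, Cdkn1c, H19 and Meg3 from the maternal copy. Many paternally expressed genes favour growth of the embryo and many maternally expressed ones hold it back, and as a set they are high in fetal tissue and decline after birth. Both parental genomes of an inbred embryo are alike, so the values below are totals over both copies and say nothing of which copy was read.

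Only 16 count columns could be matched with a labelled cell, through the list of runs and cell titles that accompanies the study, all from embryo WT01, comprising 11 cells labelled basal layer, 4 labelled K17 high and 1 labelled intermediate layer. The other 221 columns were not matched with an embryo, genotype or label. All 237 were therefore also placed in states by the level of marker genes in CPM, the rounded count of a gene per 1000000 counts of its column. A basal column had Krt5 and Krt14 at 300 CPM or more and Krt8 under 100. A simple column had Krt8 and Krt18 at 100 CPM or more with Krt5 and Krt14 under 100, and a mesenchymal column had Col1a1 and Col3a1 at 100 CPM or more. These rules gave 54 basal, 65 simple and 78 mesenchymal columns. A further 39 columns met no rule, and 1 met 2 rules and was left out. State, genotype, embryo, preparation and qPCR screen cannot be told apart in these columns, and a state is a range of marker values, not a condition. By the labels, all 70 cells called mutant fibroblast came from 1 KO embryo, whereas the 45 WT basal layer cells came from 3 embryos.

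Column totals ran from 2701500 to 19197138 counts with a median of 6938031. The basal keratinocyte markers Krt5, Krt14, Krt15, Trp63 and Col17a1 summed to a median of 14094 CPM in basal columns, 371 in simple columns and 0 in mesenchymal columns. The mesenchymal list, with the collagen genes Col1a1 and Col3a1 in it, summed to a median of 72691 CPM in mesenchymal columns. Its median was 788 in simple and 503 in basal columns. There Dcn, of the same list, alone had medians of 338 and 483 CPM, and Col1a1 had a median of 0 in both. Both lists contain genes used to set the states. Mesenchymal columns had Krt8 at 2.11 CPM or less, and 66 of 78 had Pdgfra at 10 CPM or more. The largest state thus goes against the Krt8 and Pdgfra screens and the CD140a sort described above. The paper reports heavy contamination of its KO epidermal cells by dermal cells, and describes the Krt8 screen as an enrichment. Whether these columns are such dermal cells was not tested. Muscle markers summed to 100 CPM or more in 10 mesenchymal columns, and haemoglobin genes to 1000 CPM or more in 3 simple columns. The highest haemoglobin sum, 592694 CPM, lowers the CPM of every other gene in that column, and the ranges given for simple columns include it. All 15 paired basal layer and K17 high cells met the basal rule, and the intermediate layer cell, with Krt1 at 13864 and Krt10 at 15380 CPM, met none.

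No p-value is given for any comparison: the labelled cells came from a single embryo, and the state columns have no map to embryos. A difference between 2 groups was counted when the summed counts of the groups, as CPM with 1 CPM added, differed at least 2-fold. Intervals are exact Poisson intervals at 95% of the summed count and cover counting error only.

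On the genome (GRCm38, the build of mm10), Igf2 (chr7:142650766-142666816), H19 (chr7:142575529-142578143) and Cdkn1c (chr7:143458339-143461050) are on the minus strand of distal chromosome 7, and Peg3 (chr7:6703892-6730431) is on the same strand of the proximal part. Dlk1 (chr12:109452823-109463336) and Meg3 (chr12:109541001-109571726) are neighbours on the plus strand of chromosome 12. Mest (chr6:30723547-30748465) and Plagl1 (chr10:13060504-13131694) are on the plus strand, and Grb10 (chr11:11930508-12038683) and Igf2r (chr17:12682406-12769664) on the minus strand. H19 and Meg3 are long noncoding RNAs, and the other 8 encode proteins.

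Promoter windows of 4 genes are shown because the results below turn on them: Dlk1 and Meg3 for the sharpest difference between states, Mest for the highest mesenchymal level per kilobase, and Peg3 because its level followed those of the other members least in mesenchymal columns. Each window covers 250 bases before to 50 after an annotated RNA start, as RefSeq gives it for GRCm38.p6, written 5′ to 3′ on the strand of the gene. Dlk1 is at chr12:109452573-109452872, Meg3 at chr12:109540746-109541045 and Mest at chr6:30737800-30738099, all on the plus strand, and Peg3 is at chr7:6730370-6730669 on the minus strand. Capitals mark matches, on either strand, to the GC box (GGGCGG), the TATA box (TATAAA), the CCAAT box (CCAAT) and the GC-rich element bound by PLAGL1 (GGGGCCCC).
Dlk1: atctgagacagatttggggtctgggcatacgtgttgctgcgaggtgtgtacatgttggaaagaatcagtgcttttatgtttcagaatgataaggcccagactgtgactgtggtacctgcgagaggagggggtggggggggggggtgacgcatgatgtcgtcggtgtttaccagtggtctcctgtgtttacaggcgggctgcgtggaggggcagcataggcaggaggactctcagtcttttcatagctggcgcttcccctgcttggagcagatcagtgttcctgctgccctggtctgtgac
Meg3: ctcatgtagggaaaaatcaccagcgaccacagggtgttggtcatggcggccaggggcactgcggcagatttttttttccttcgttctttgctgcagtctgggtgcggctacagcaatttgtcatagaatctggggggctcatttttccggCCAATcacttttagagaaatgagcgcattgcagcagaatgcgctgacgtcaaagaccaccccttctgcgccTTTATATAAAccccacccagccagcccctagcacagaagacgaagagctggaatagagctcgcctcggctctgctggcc
Peg3: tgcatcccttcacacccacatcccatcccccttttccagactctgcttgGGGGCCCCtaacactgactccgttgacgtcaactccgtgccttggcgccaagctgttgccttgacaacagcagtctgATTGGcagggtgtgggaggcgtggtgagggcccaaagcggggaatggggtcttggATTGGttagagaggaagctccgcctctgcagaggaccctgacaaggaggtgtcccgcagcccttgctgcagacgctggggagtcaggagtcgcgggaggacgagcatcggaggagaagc
Mest: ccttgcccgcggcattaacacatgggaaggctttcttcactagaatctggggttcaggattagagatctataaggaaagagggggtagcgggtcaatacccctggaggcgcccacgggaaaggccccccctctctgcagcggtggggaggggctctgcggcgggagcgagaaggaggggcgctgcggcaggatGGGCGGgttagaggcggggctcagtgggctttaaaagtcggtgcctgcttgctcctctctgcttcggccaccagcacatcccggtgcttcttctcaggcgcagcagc
The Dlk1 window held none of the 4 motifs. The Meg3 window held 2 overlapping TATA matches, one on each strand, and 1 CCAAT box. The Peg3 window held 1 PLAGL1 element and 2 CCAAT boxes, and the Mest window 1 GC box. Among 32817 mouse promoter windows of the same length, 35.6% held a GC box, 13.6% a TATA box, 37.4% a CCAAT box and 1.07% the PLAGL1 element. The table held 15 windows for 8 of the genes, and Igf2, Mest, Grb10 and Meg3 had more than 1 start. Of the 15 windows, 8 held a GC box, 1 a TATA box and 1 the PLAGL1 element. Dinucleotides CG numbered from 1 in the second Meg3 window to 45 in the upstream Grb10 window, with 20 or more in 4 of 15 windows and in 26.5% of all windows. H19 and Cdkn1c were not in the table.

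The first comparison set the 4 K17 high cells, which carry the keratin Krt17 of periderm and early appendage cells at 1715 to 3902 CPM, against the 11 basal layer cells of the same embryo. Krt17 in the basal layer cells ran from 4.37 to 613 CPM. The imprinted genes were on the low side in K17 high cells. Igf2, Mest, Plagl1, H19 and Cdkn1c were at least 2-fold lower, and none was at least 2-fold higher. These are 5 of the 8 members tested, where 21.9% of all 15387 genes tested were at least 2-fold lower and 17.5% at least 2-fold higher. The median log2 ratio was −1.0 over the 8 members and −0.06 over all genes. Dlk1 and Meg3 were under 1 CPM in both groups and were not tested.

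Igf2, the fetal insulin-like growth factor, stood at 9.48, 10.1, 1.45 and 1.42 CPM in the 4 K17 high cells. In the 11 basal layer cells it ran from 0.127 to 156 CPM with a median of 59.9. The log2 ratio of the summed values, 5.41 against 57.7 CPM, was −3.20. Igf2 was above all K17 high cells in 9 of the 11 basal layer cells, and 1 cell at 8.82 and 1 at 0.127 CPM fell within or under their range.

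H19, the maternally expressed RNA that shares its enhancers with Igf2, was at 124, 42.9, 72.6 and 41.6 CPM in K17 high cells. It ran from 1.27 to 523 CPM in basal layer cells, with a median of 274 and a log2 ratio of −2.04. All basal layer cells but 1 were at 200.6 CPM or more, above every K17 high cell. The exception, basal layer cell 2 (cells are numbered within a label in sample order), was also the one with Krt17 at 613 CPM, and it had the lowest Igf2, H19 and Cdkn1c of the 11.

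Mest, an enzyme-like protein of the alpha/beta hydrolase fold used as a marker of mesoderm, was at 0.583, 0.285, 30.5 and 148 CPM in K17 high cells and from 8.0 to 647 in basal layer cells. Its log2 ratio was −2.42, and the 4 cells spread so widely that leaving out K17 high cell 4 moved the ratio to −4.11. Cdkn1c, the p57 inhibitor of cyclin-dependent kinases, was at 15, 14.7, 60.3 and 24 CPM against a median of 55.9 in basal layer cells (0.254 to 132), a log2 ratio of −1.09. This ratio was −1.86 without K17 high cell 3, and it came under 2-fold, at −0.97 to −0.88, without K17 high cell 1 or 2 or basal layer cell 7, 9 or 10. Of the other members of the same inhibitor family, Cdkn1b was higher in K17 high cells, at 43.4 against 5.53 CPM, and Cdkn1a lower, at 0.137 against 5.01 CPM.

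Plagl1, a zinc-finger transcription factor placed upstream of several other imprinted genes, was present in few cells and strong where present. In the basal layer 3 of 11 cells had 214, 155 and 188 CPM and the other 8 had 0.646 or less. In K17 high cells 1 of 4 had 34.7 CPM and the others 0.292, 0.285 and 0. The log2 ratio of −2.14 therefore rests on 4 cells with expression, and it was −5.44 without K17 high cell 3 and −1.50 without basal layer cell 3.

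The other tested members differed less. Peg3, a zinc-finger protein of growth and maternal behaviour, was at 278, 185, 174 and 124 CPM in K17 high cells and from 49.8 to 842 in basal layer cells, a log2 ratio of −0.92 that passed 2-fold, at −1.14 to −1.02, without K17 high cell 1 or basal layer cell 1 or 2. Igf2r, the receptor that clears IGF2 into lysosomes, was at 44.5, 41.9, 79.7 and 73.8 CPM against a basal layer median of 32, a log2 ratio of 0.93 and the highest of the set, which passed 2-fold, at 1.02 to 1.06, without K17 high cell 1 or 2 or basal layer cell 7 or 10. Grb10, an adaptor that damps insulin and IGF receptor signalling, had a ratio of −0.04 that changed sign, to between 0.03 and 0.16, without K17 high cell 1 or 2 or basal layer cell 1 or 6. For every member the ranges of both labels overlapped.

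The cycling gene Mki67 was at 416 CPM in K17 high and 105 CPM in basal layer cells, with no overlap between them, and Top2a, Ccnb1 and Cdk1 were also higher, by log2 ratios of 1.15, 1.56 and 1.66. The part of cycling in the imprinted gene values was not tested. Summed over the 10 members, a K17 high cell had 412 to 780 CPM and a basal layer cell 379 to 1872 CPM.

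The single intermediate layer cell gave another mix. H19 was at 913 CPM, above all 15 other cells, as was Plagl1 at 293 CPM. Igf2 was at 136 CPM, while Peg3, Mest and Grb10 were at 0.970, 2.43 and 8.01 CPM, each lower than in every basal layer cell. With 1 cell, no spread can be given. No Dlk1 count was found in the 16 cells; over the 11 basal layer cells the upper limit of the interval was 0.042 CPM. Meg3 had 8 counts in 1 basal layer cell and none elsewhere.

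**Figure D1:**
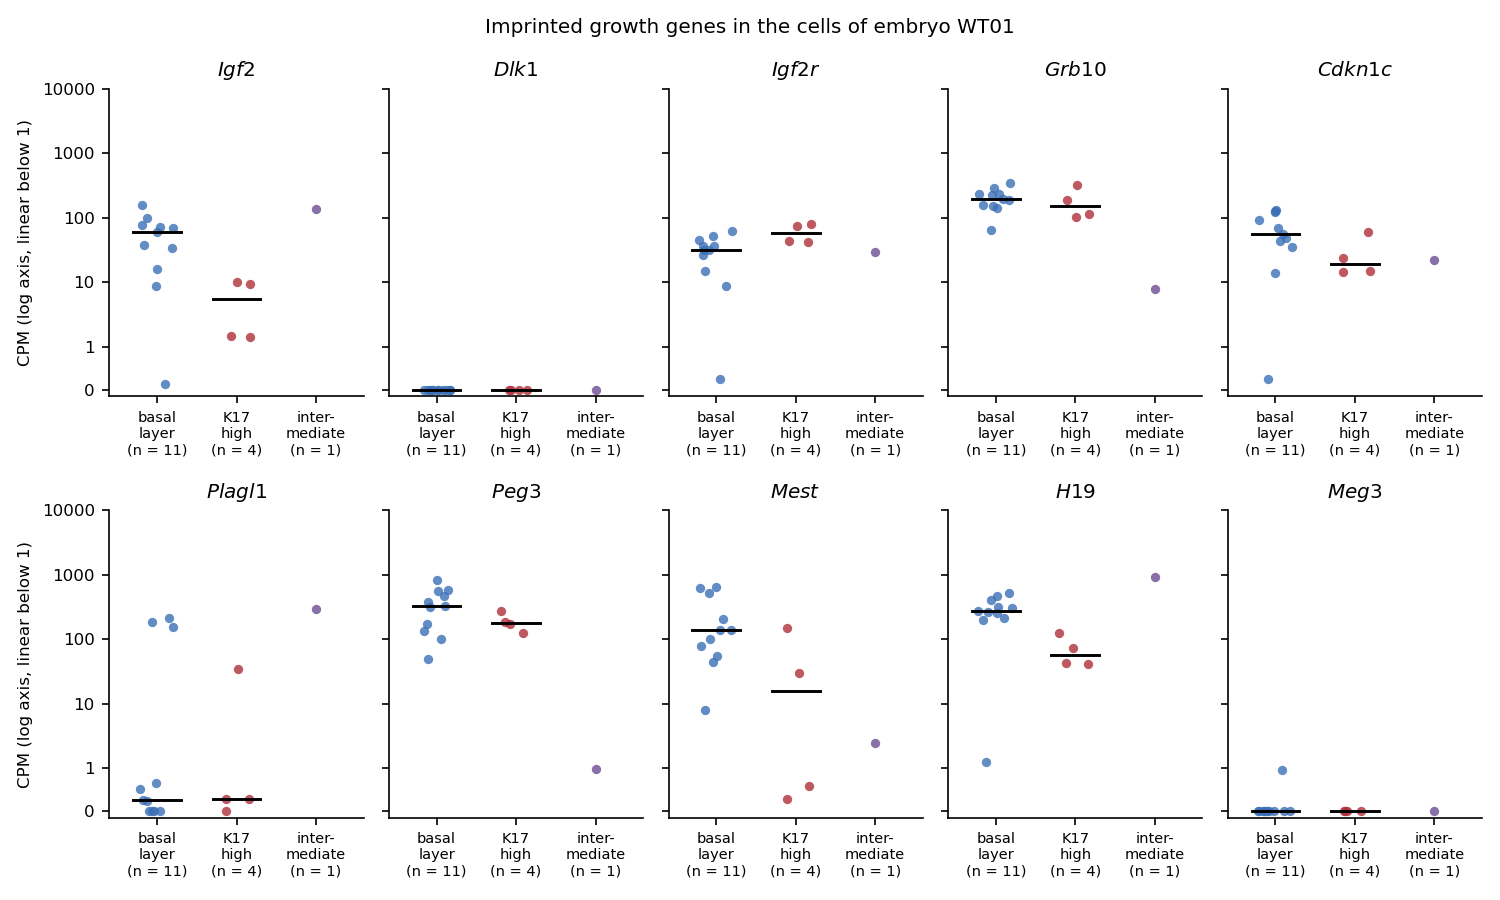
Level of each imprinted gene in the 16 labelled cells of embryo WT01, in CPM on an axis that is logarithmic above 1 and linear below; each point is a cell and bars are medians. Igf2 and H19 sit lower in the 4 K17 high cells than in most of the 11 basal layer cells, Plagl1 is near 0 or above 100 CPM in basal layer cells, and Dlk1 is at 0 throughout.

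Over all columns the imprinted genes were highest, in most cases, in mesenchymal columns, intermediate in simple columns and lowest in basal columns. The 10 genes summed to a median of 12624 CPM in mesenchymal columns (2800 to 27691), which is 1.26% of the counts of a column. The same sum was 3915 CPM in simple columns (87.4 to 10835) and 1240 CPM in basal columns (379 to 2723). Mesenchymal against basal columns, 9 of 10 members were at least 2-fold higher and 0 at least 2-fold lower, where 19.4% of 16819 genes were at least 2-fold higher and 19.4% at least 2-fold lower. The median log2 ratio was 3.44 over members and −0.22 over all genes. With library sizes scaled by edgeR's TMMwsp, genes at 10 CPM or more in both groups moved up by 0.30 on the log2 scale, the genes called higher went from 50.1% to 63.3% of all calls, and H19 became the tenth member past 2-fold at 1.11.

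Simple against basal columns, 7 of 10 members were at least 2-fold higher, where 18.3% of 16613 genes were, and 0 at least 2-fold lower, where 13.4% were. The median log2 ratio was 2.01 over members and 0.04 over all genes. Under TMMwsp genes moved up by 0.31, those called higher went from 57.7% to 72.5% of calls and the members from 7 to 9. Mesenchymal against simple columns, 8 of 10 members were at least 2-fold higher, where 19.2% of 17245 genes were, and 0 at least 2-fold lower, where 24.2% were.

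**Figure D2:**
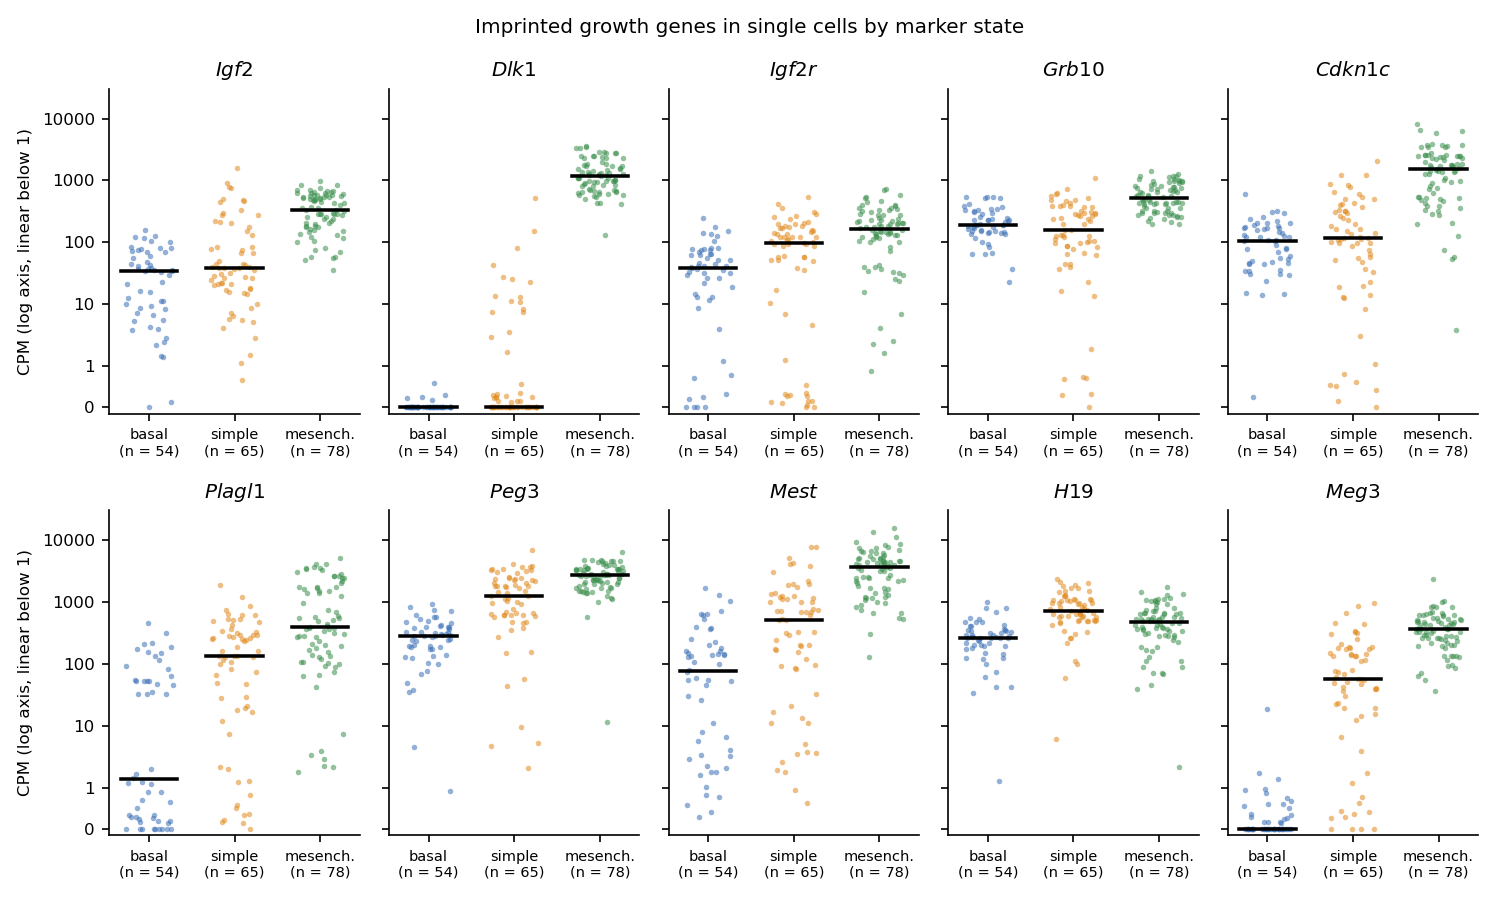
Level of each imprinted gene in every basal, simple and mesenchymal column, in CPM on an axis that is logarithmic above 1 and linear below; each point is a column and bars are medians. Dlk1 and Meg3 separate mesenchymal from basal columns with no overlap, Plagl1 splits into columns near 0 and columns above 10 CPM in the basal state, and H19 is highest in simple columns.

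The growth factor gene Igf2 was taken first. Igf2 ran from 35.6 to 979 CPM in mesenchymal columns with a median of 330, from 0.652 to 1576 in simple columns with a median of 38.2, and from 0 to 156 in basal columns with a median of 33.9. Mesenchymal columns had it at 100 CPM or more in 70 of 78, simple in 18 of 65 and basal in 6 of 54. The simple columns were uneven: the log2 ratio of summed counts against basal was 2.06 but that of medians 0.17, and the upper quartile of the simple columns, 150 CPM, was far above their median. Its mesenchymal ratio against basal was 3.10.

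The high simple columns stood together in the order of the count table. Of the 18 simple columns with Igf2 at 100 CPM or more, 16 were among the last 18 of the 65 simple columns in that order, which ran from 28.9 to 1576 CPM, and 2 were among the other 47, none of them over 223 CPM. In the same way the last 15 of the 54 basal columns were all at 12.6 CPM or less. The median total was 13159083 counts in the last 18 simple columns and 6897823 in the others. These places in the order were chosen after the Igf2 values were seen, what sets the order is not given in the sources used here, and its part in the values was not tested. Without these 18 simple and 15 basal columns the simple to basal log2 ratio of Igf2 turned to −0.65. That of Igf2r rose to 1.52, past 2-fold, so 7 members were again at least 2-fold higher. Ratios of mesenchymal columns, such as 1.03 for Igf2 against simple columns, were not recomputed without these columns.

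Dlk1, a transmembrane and secreted relative of the Notch ligands that holds back differentiation, was the closest to a switch. All 78 mesenchymal columns had it, from 130 to 3644 CPM with a median of 1193. Basal columns had 12 counts in all, in 5 of 54 columns, with no column over 0.591 CPM. The summed levels were 1398 CPM (1395 to 1402) and 0.026 CPM (0.013 to 0.045), 53904-fold apart by the summed counts, or 30859-fold at the upper limit of the basal count. In simple columns the median was 0, 11 of 65 columns reached 10 CPM and 2 reached 100, with a highest value of 517 CPM. Leaving out single columns moved the simple to basal log2 ratio from 3.97 to as low as 3.08.

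Igf2r and Grb10 had smaller mesenchymal ratios against basal than Igf2 and Dlk1. Igf2r had medians of 163 CPM in mesenchymal, 99.1 in simple and 38.9 in basal columns, with log2 ratios against basal of 2.0 and 0.94. Grb10 had 522, 156 and 192 CPM. It was present at 10 CPM or more in every basal and mesenchymal column and in 58 of 65 simple columns. Its mesenchymal ratio was 1.33, and its simple to basal ratio of −0.06 became 0.25 under TMMwsp. The ranges of both genes overlapped between all states.

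Cdkn1c had a median of 1517 CPM in mesenchymal columns (3.77 to 8241), 116 in simple (0 to 2045) and 106 in basal columns (0.254 to 600). It was the brake with the largest mesenchymal ratio against basal, 3.76 on the log2 scale, above the 3.10 of Igf2. Cdkn1a, of the same family, went the other way, at 4.09 CPM in the mesenchymal sum against 24.2 in the basal sum, and Cdkn1b was at 14.8 against 9.79 CPM.

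Plagl1 was again uneven within states. In basal columns 24 of 54 were at 10 CPM or more and 24 were under 1 CPM, with 6 between. In simple columns 51 of 65 were at 10 CPM or more, with a median of 132. Mesenchymal columns had it in 71 of 78 at 10 CPM or more, with quartiles at 135 and 1711 CPM and a highest value of 5049. The log2 ratios against basal were 4.26 for mesenchymal and 1.95 for simple columns.

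Peg3 and Mest followed the same order of states. Peg3 had medians of 2686, 1255 and 281 CPM in mesenchymal, simple and basal columns, and was at 1000 CPM or more in 76 of 78, 38 of 65 and 0 of 54. It was the steadiest member in mesenchymal columns, with a coefficient of variation of 0.42. Mest had medians of 3605, 515 and 76.3 CPM and log2 ratios against basal of 4.18 and 2.35. In basal columns it spread from 0.285 to 1685 CPM.

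The noncoding RNAs parted. Meg3 had medians of 364, 56.3 and 0 CPM in mesenchymal, simple and basal columns. Its lowest mesenchymal value, 36.9 CPM, was above its highest basal value, 18.3 CPM, and the log2 ratio was 8.03. Meg3 reached 10 CPM in 50 of 65 simple columns and in 1 of 54 basal columns. H19 had medians of 474, 710 and 265 CPM, highest in simple columns, with log2 ratios of 1.53 for simple and 0.80 for mesenchymal against basal, and of −0.73 for mesenchymal against simple. The −0.73 stayed between −0.82 and −0.58 under the alternatives run for it, and the ranges of the states overlapped. Leaving out the last 18 simple columns in table order was not among those alternatives.

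Levels of different genes were compared only per kilobase of exon. Exon length was the union of all annotated exons of a gene, from 2.04 kb for Cdkn1c to 18.1 kb for Meg3. It can be longer than the transcript present, so the order of genes depends on the annotation. By median CPM per kilobase, Mest (914) and Cdkn1c (744) led in mesenchymal columns, followed by Dlk1 (211), Peg3 (202) and H19 (193), with Igf2 (57.7), Grb10 (57.4) and Plagl1 (49.4) close together and Meg3 (20.1) and Igf2r (17.5) last. In simple columns H19 led (289), before Mest (131), Peg3 (94.2) and Cdkn1c (57). H19 also led in basal columns (108), before Cdkn1c (52.1) and then Grb10 (21.1), Peg3 (21.1) and Mest (19.4), which lay close together. The spread within a state was wide enough that Dlk1, Peg3 and H19 did not separate in mesenchymal columns, nor Grb10, Peg3 and Mest in basal columns.

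Reads of several members could have been split with an overlapping gene, since the libraries do not mark strand and the counting options are not given in the sources used here. Igf2 shares 62.8% of its exon bases with Gm49394 on the same strand, which had 341 CPM in the mesenchymal sum. Cdkn1c shares 30.7% with Gm44732 (665 CPM) and Mest 23.1% with Copg2 (822 CPM), both on the opposite strand. Values carried a fraction before rounding in 43.2% of Igf2, 55.3% of Cdkn1c, 54% of H19, 68.8% of Meg3 and 31.2% of Mest values above 0, and in none of Dlk1, Igf2r and Grb10. The levels of Igf2, Cdkn1c and Mest are therefore uncertain. Adding the counts of overlapping genes left the number of members past 2-fold at 9, 7 and 8.

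The number of members present in each column was also counted. Counting a gene as present at 10 CPM or more, mesenchymal columns held a median of 10 members (8 to 10), and 65 of 78 held all 10. Simple columns held a median of 8 (1 to 10), with all 10 in 6 of 65, and basal columns a median of 7 (4 to 8), with all 10 in 0 of 54. Thinning every column to 1000000 counts left these medians at 10, 8 and 7. The 39 columns in no state held a median of 7 (2 to 10). By itself each member was at 10 CPM or more in 71 (Plagl1) to 78 of the 78 mesenchymal columns. The high mesenchymal counts thus follow from these single rates. Whether members shared columns more often than the single rates give was not tested. No share of all genes was set beside the counts.

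Across the columns of a state, Spearman's rho of log2(CPM + 1) described how levels moved together. The pairs of all genes were taken over genes at 10 CPM or more in at least 50% of the columns of a state, a filter that 10 members passed in mesenchymal, 9 in simple and 7 in basal columns. In the 78 mesenchymal columns the median rho over the 45 member pairs was 0.40, against 0.01 over all gene pairs, and 43 of 45 were above 0. The rho was 0.5 or more in 12 of 45 member pairs, where 0.112% of all pairs were. In the 65 simple columns 1 of 45 reached 0.5, where 0.0739% of all pairs did, and the median was 0.07 over both. In the 54 basal columns 0 of 45 did, where 0.311% of all pairs did, and the median was 0.03. Over the members that passed the filter, 1 of 36 pairs reached 0.5 in simple columns and 0 of 21 in basal columns, with medians of 0.07 and 0.07. Without the last 18 simple columns in table order, 3 of 45 pairs reached 0.5. Columns of a state share unknown embryos, so these values describe the columns and carry no p.

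**Figure D3:**
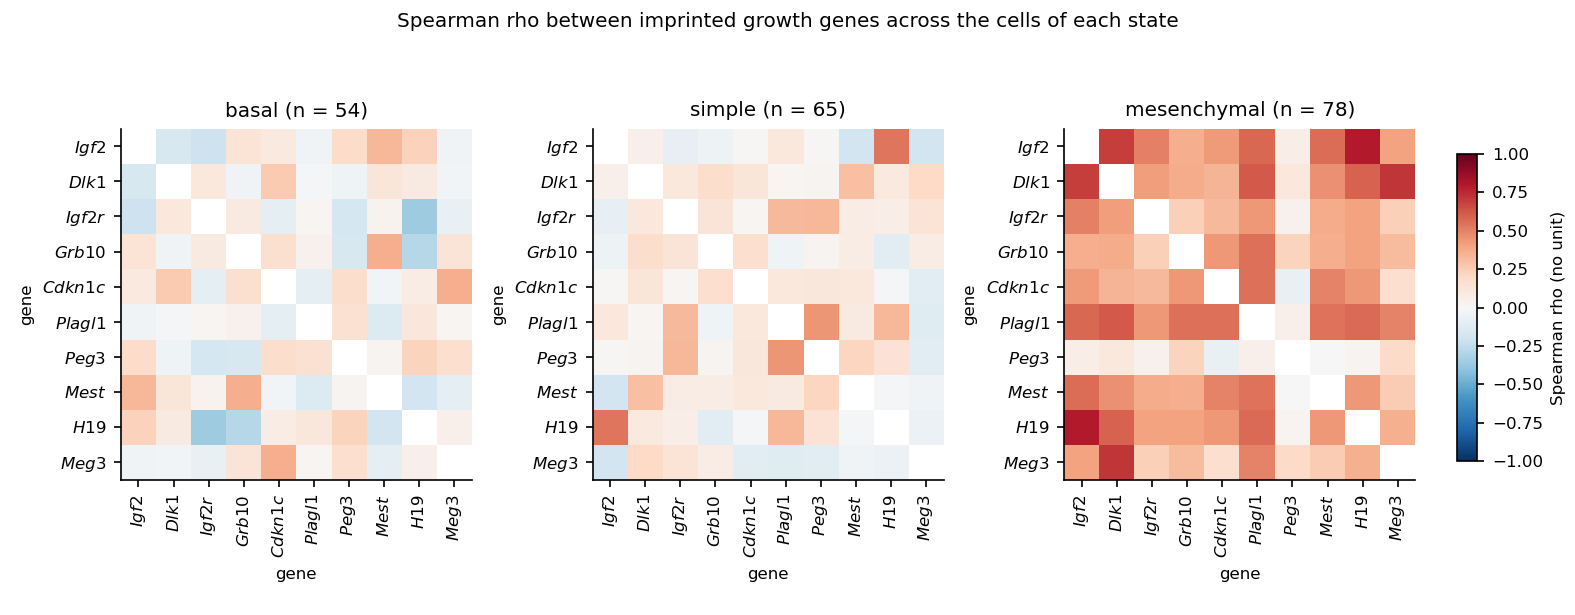
Spearman rho between each pair of imprinted genes across the columns of each state, on a colour scale from −1 to 1; white squares on the diagonal are not computed. Mesenchymal columns are positive for 43 of 45 pairs with the exception of the Peg3 row near 0, whereas basal and simple columns show values on both sides of 0.

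The highest mesenchymal values joined neighbours on the genome. Igf2 and H19 had a rho of 0.79, and Dlk1 and Meg3 of 0.71. Igf2 was the third of 6165 other genes in order of rho with H19, after genes inside H19, and Dlk1 the fourth in order of rho with Meg3. Members on different chromosomes followed closely: Igf2 and Dlk1 had 0.69, Dlk1 and Plagl1 0.61, Dlk1 and H19 0.59, and Igf2 and Plagl1 0.58. Plagl1 was the gene with the highest rho to Grb10 of all 6165, at 0.55, and the fourth for Cdkn1c, also at 0.55.

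Peg3 stood outside this pattern, with rho between −0.07 (Cdkn1c) and 0.22 (Grb10). The genes most like it in mesenchymal columns were AY036118 (0.54) and Gm42418 (0.54), loci known to collect ribosomal RNA reads, and its rho with the column total was −0.23. The part of library composition in the Peg3 values was not tested. In simple columns the pair Igf2 and H19 was the only one at 0.5 or more, at 0.54, and Plagl1 and Peg3 followed at 0.44. In basal columns the values furthest from 0 were 0.36 (Cdkn1c and Meg3, Grb10 and Mest) and −0.36 (Igf2r and H19), and Meg3 there rests on a few counts.

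Other measures moved with the members in mesenchymal columns. Plagl1 had a rho of −0.75 with Twist2, −0.56 with Lum and −0.53 with Pdgfra, which mark dermal fibroblasts, and 9 of the 10 members were negative with Twist2, Peg3 being the exception at 0.15. Other genes of fibroblasts were mixed. The collagen gene Col1a1 had a rho of 0.57 with Dlk1, 0.47 with Meg3, 0.46 with Igf2 and 0.16 with Plagl1. Col3a1 had 0.50, 0.48, 0.38 and 0.20 with the same members, and Dcn had 0.39, 0.52, 0.11 and −0.0049. Not all members were positive with these genes. Col1a1 was near 0 with Mest (0.05), Peg3 (−0.0057) and Cdkn1c (−0.014), and Dcn had −0.21 with Cdkn1c. Vim, also on the mesenchymal list, was negative with every member, from −0.45 for Grb10 to −0.04 for Peg3. With the values of Twist2, Lum and Pdgfra held fixed, 4 pairs were at 0.5 or more in place of 12, with Igf2 and H19 at 0.72 and Dlk1 and Meg3 at 0.69. With Col1a1, Col3a1 and Dcn held fixed 13 pairs were. Holding the column total and the number of genes detected fixed gave 13 pairs, and leaving out the columns with muscle, neural or endothelial markers at 100 CPM or more gave 16. Members were weakly negative with Mki67, from −0.38 for Meg3 to −0.09 for Mest. The part of these marker genes or of cycling in the rho values was not tested.

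Within single columns, the ratio of H19 to Igf2 per kilobase of exon had a median of 3.12 in mesenchymal columns (1.06 to 11.9), and H19 was the higher in 77 of 77 columns with both at 10 CPM or more. With the counts of the overlapping Gm49394 added to Igf2, H19 was the higher in 67 of the 77, and the ratio ran from 0.557 to 6.37. The median was 37 in 53 of 65 simple columns (0.145 to 121) and 16 in 37 of 54 basal columns (1.34 to 167). Columns with either gene under 10 CPM were left out, such as a basal column with H19 at 478 and Igf2 at 2.18 CPM. The medians and upper ends hold only for columns past this filter, and the simple ones include the high Igf2 columns late in table order. Adding Gm49394 lowered the mesenchymal median to 1.6 and the basal one to 8.57 and left the simple one at 36.8. The order of the states was the same with and without that addition. Dlk1 and Meg3 were both present in all 78 mesenchymal columns. In simple columns 10 had both, 40 had Meg3 alone, 1 had Dlk1 alone and 14 had neither, and in basal columns 53 of 54 had neither. Meg3 per kilobase was under Dlk1 in every mesenchymal column, with a median ratio of 0.086. This ratio depends on the annotated exon lengths, 18.1 kb for Meg3 and 5.66 kb for Dlk1. Before division by length the medians were 364 and 1193 CPM.

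**Figure D4:**
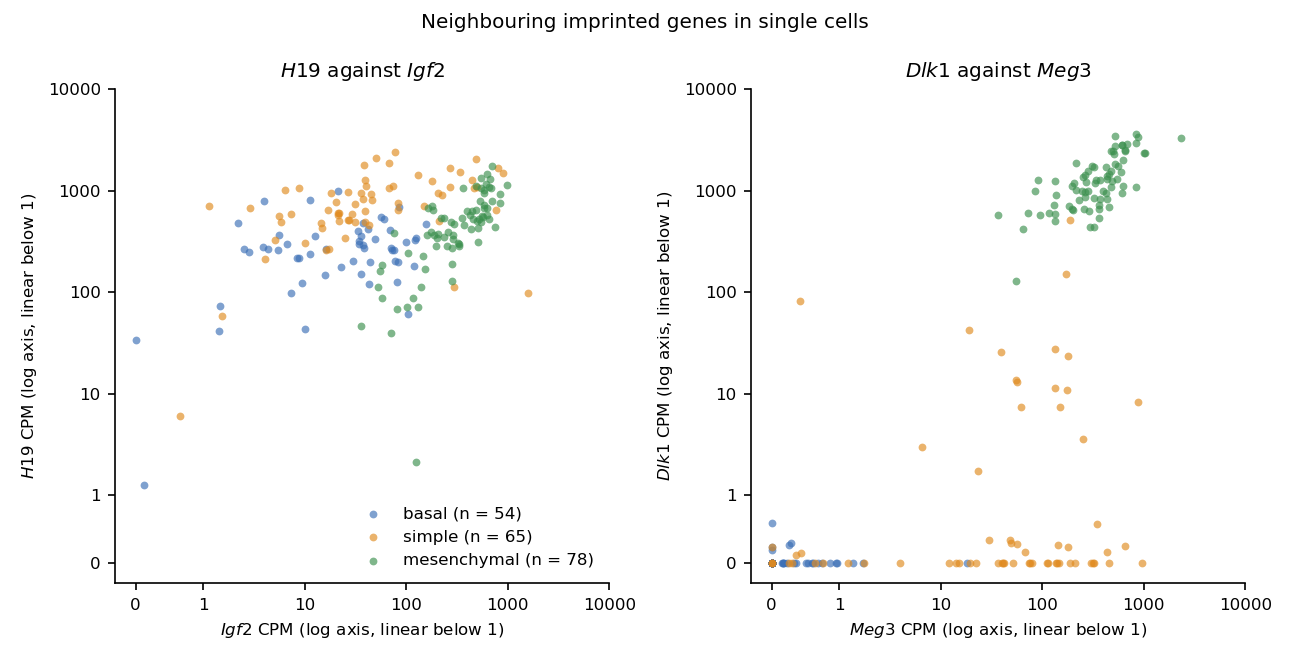
H19 against Igf2 and Dlk1 against Meg3 in each column, in CPM on axes that are logarithmic above 1 and linear below; each point is a column, coloured by state. Mesenchymal columns form a rising cloud in both panels, and 40 simple columns lie along the Meg3 axis with Dlk1 under 10 CPM.

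By likeness over all 237 columns (Spearman's rho over 14541 genes at 1 CPM or more in at least 24 columns), the genes closest to Dlk1 were Cd248 (0.87), Lrrc17 (0.87) and Nid2 (0.87). Those closest to Meg3 were Gm27000 (0.91), Rian (0.83) and Col3a1 (0.76), the last of which sets the mesenchymal state. Mest was closest to Dlk1 (0.73), Col3a1 (0.71) and Fibin (0.68), and Peg3 to its imprinted neighbour Zim1 (0.70), Col3a1 (0.65) and Cd63 (0.64). Igf2 was closest to Gm49394 (0.92), with which it shares exon bases, and then to Mir675 (0.76) and Gm27483 (0.76), both inside H19. Cdkn1c was closest to the overlapping Gm44732 (0.71), then Zeb1 (0.68) and Dlk1 (0.67). Plagl1 was closest to Nrk (0.57), Gm27741 (0.56) and Zim1 (0.56), and Grb10 to Serpinh1 (0.67), Cnn3 (0.64) and Tmeff2 (0.63). H19 had weaker partners, Metrnl (0.54), Prdx5 (0.47) and Myl6 (0.43), as had Igf2r, with Rrbp1 (0.50), Lhfpl2 (0.48) and Rhoj (0.47). Several of these, such as Col3a1, set or mark the mesenchymal state.

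Of 50 other genes listed as imprinted, 49 were in the table. Whether each is imprinted in skin cells was not tested. Mesenchymal against basal columns, 26 of the 44 tested were at least 2-fold higher and 4 at least 2-fold lower, with a median log2 ratio of 1.31, where 19.4% of all genes were higher, 19.4% lower and the median was −0.22. Rian, a noncoding RNA of the Dlk1 and Meg3 cluster, had the largest ratio, 7.13, at 143 CPM against 0.03, and Rtl1 (6.04) and Mirg (4.36) of the same cluster were also higher. Zim1, beside Peg3, was at 146 against 1.32 CPM. Gatm, which makes a precursor of creatine, had 5.82 but was at 10 CPM in only 12 of 78 mesenchymal columns. Phlda2, a placental growth restrainer next to Cdkn1c, went the other way, at 1.76 against 23.7 CPM, as did Slc22a18 of the same region at 1.5 against 9.95 CPM.

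Dcn, a matrix proteoglycan that is also in the mesenchymal list above, was at 3310 CPM in mesenchymal and 686 in basal columns. Cd81, a tetraspanin, was at 1151 and 283 CPM. Gnas, which encodes a stimulatory G protein subunit, was at 795 and 158 CPM, and Copg2, which overlaps Mest, at 822 and 290 CPM. Copg2 had a rho of 0.97 with Mest in mesenchymal columns, and reads of Mest may be among its counts. Simple against basal columns, 10 of 36 tested were at least 2-fold higher and 1, Phlda2, at least 2-fold lower, where 18.3% and 13.4% of all genes were. The median log2 ratio of the 36 was 0.54. Rian (5.39) and Zim1 (4.30) led again, followed by Usp29 (2.49) beside Peg3. In K17 high against basal layer cells 5 of 26 tested were higher and 6 lower, shares near the 17.5% and 21.9% of all genes, with a median log2 ratio of 0.24.

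**Figure D5:**
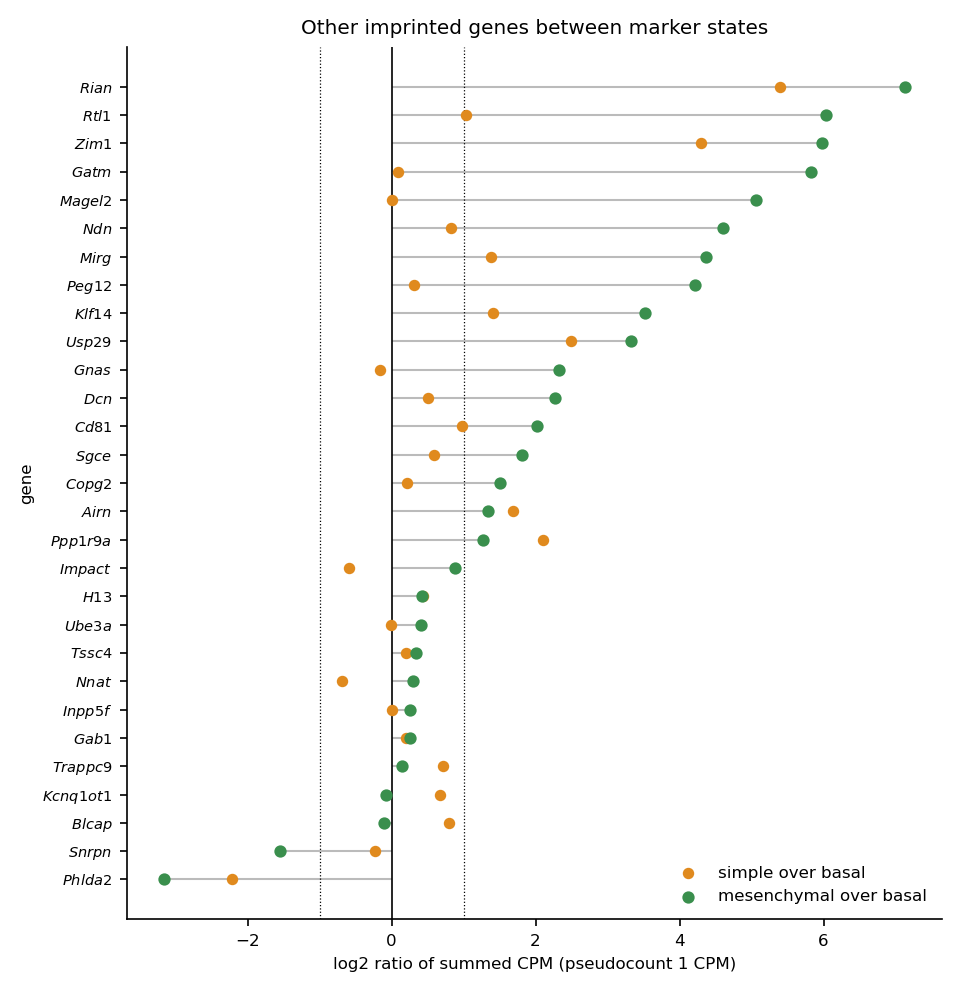
Log2 ratios of summed CPM for the 29 other imprinted genes at 10 CPM or more in the basal or mesenchymal sum; orange points are simple over basal, green points mesenchymal over basal, and dotted lines mark 2-fold. Rian and Zim1 lie far to the right for both, Magel2, Ndn and Peg12 for mesenchymal alone, and Phlda2 lies to the left.

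Of 17 genes of the insulin-like growth factor axis, 7 were at least 2-fold higher in mesenchymal than in basal columns and 0 at least 2-fold lower, beside 19.4% and 19.4% of all genes. Their median log2 ratio was 0.29. Pappa2, a protease that cuts IGF-binding proteins, was at 98.9 against 0 CPM (log2 ratio 6.64), and the ligand Igf1 at 125 against 6.73 CPM (4.03). The binding proteins Igfbp6 (3.90), Igfbp7 (2.45) and Igfbp4 (2.06) followed. Igfbp5 was at 442 against 158 CPM. The receptor Igf1r was at 35.2 and 35.1 CPM. In simple against basal columns 3 of 14 were higher and 6 lower, beside 18.3% and 13.4% of all genes, with a median of −0.63. Igfbp4 was at 4.38 against 192 CPM there and Igfbp3 at 0.07 against 34.9 CPM. The adaptor Irs1 was at 15 against 62.1 CPM, whereas the binding protein Igfbp2 was at 1213 against 495 CPM. In K17 high against basal layer cells 2 of 12 tested were higher and 5 lower, beside 17.5% and 21.9% of all genes, with a median of −0.55.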

How the data were processed

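The authors sorted single cells, made cDNA with SMART-Seq HT, which does not mark strand, aligned the reads by HISAT2 against mm10, and assigned them to genes by featureCounts. The deposited table holds estimated counts, and 23.2% of its values above 0 carried a fraction; the counting options are not given in the sources used here.

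Counts were rounded and divided by column totals to give CPM (Python 3.11.15, pandas 2.3.3). The 16 columns of embryo WT01 were paired with samples through the run that the study lists for each cell title, and 221 columns with no sample of their own were used only in the pool of all columns. No doublet caller was run. Gene symbols were matched for 55154 of 55335 IDs, and exon lengths and overlaps came from GENCODE on GRCm38.

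Groups were compared by the log2 ratio of summed counts as CPM plus 1, over genes at 1 CPM or more in either group, and genes within a state by Spearman's rho. No test between groups was run, since the labelled columns came from 1 embryo and the others have no map to embryos. The calculation was tested on simulated data.

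Named genes were the 10 members, the state markers, for each member the 3 genes with the highest rho, and from the other imprinted and IGF axis genes up to 4 each with the largest ratio or the highest level. Mirg, Slc22a18, Magel2, Ndn, Peg12, Igf1r, AY036118 and Gm42418 were named after their values were seen. The members and lists were chosen with earlier results of these data known. Alternatives covered rounding, edgeR 4.0.16 TMMwsp library sizes, means and medians, pseudocount, thresholds, depth, thinning and leaving out cells; those on single columns, marker columns, table order, overlapping genes and partial rho were added after seeing the data.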

Additional observations from a re-analysis of the deposited data

Results flagged for a closer look

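Plagl1 in the 4 K17 high cells of embryo WT01 had its highest cell, at 34.7 CPM, far from the other 3, which were at 0.292 CPM or less. The gap took 0.992 of the whole range, above Dixon's 95% critical value for 4 samples. That value assumes normally spread measurements. In basal layer cells Plagl1 was at 155 to 214 CPM in 3 of 11 and at 0.646 or less in the others. The usual rate of 1 flag in 20 groups therefore does not apply here. All 8 tested members were screened this way, and the cells share an embryo.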

How the results depend on the processing

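The log2 ratios called at least 2-fold kept their direction under the alternatives run, with 1 exception. For simple against basal columns, that of Igf2 went from 2.06 to −0.65 without the last 18 simple and 15 basal columns in table order. Ratios of mesenchymal columns were not recomputed without those columns. The number of member pairs with rho of at least 0.5 in simple columns went from 1 to 3 without those 18 columns. Both were chosen after seeing the data. It went from 1 to 0 in simple columns with Pearson's r, and from 12 to 4 in mesenchymal columns with Twist2, Lum and Pdgfra held fixed, an alternative chosen after seeing the data; the cause was not tested. Leaving out 1 cell at a time gave 4 to 6 members at least 2-fold apart between K17 high and basal layer cells, against 5, and leaving out 1 column at a time gave 9 throughout for mesenchymal against basal, 7 to 8 for simple against basal and 7 to 8 for mesenchymal against simple columns. TMMwsp library sizes gave 6, 10, 9 and 8. With state thresholds halved or doubled, basal columns numbered 53 or 54, simple 57 or 72 and mesenchymal 82 or 75. Without the filter on low levels, 12.9% of 20943 genes were at least 2-fold higher and 16.1% lower in K17 high cells. Of the recomputed values for single members or pairs, 463 moved by under 0.2 (log2 ratio) or 0.1 (rho) and 90 by more, the 1 reversed aside, 22 of these with medians and 17 with TMMwsp sizes. No paired analysis was possible because the labelled columns came from a single embryo and the replicate numbers only count its cells. The depth was not the limit for members at 10 CPM or more, since columns held at least 2701500 counts, but a level under 1 CPM rests on a few reads.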

Other observations

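The 39 columns in no state also carried the imprinted genes. They held a median of 7 members at 10 CPM or more (2 to 10), and the 10 genes summed to 718 to 16638 CPM with a median of 3505. H19 had a median of 526 CPM there, Peg3 of 426, Plagl1 of 140 and Mest of 134, and Dlk1 reached 10 CPM in 8 of 39. Cdkn1a, the p21 inhibitor, reached 10 CPM in 21 of these 39 columns and up to 3129 CPM, against 10 of 54 basal, 20 of 65 simple and 8 of 78 mesenchymal columns.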
